A study of Mus musculus with 2 samples.

Results

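The genes described here make, carry and destroy retinoic acid, the active form of vitamin A. All 9 were chosen by symbol (Aldh1a1, Aldh1a2, Aldh1a3, Crabp1, Crabp2, Cyp26a1, Cyp26b1, Cyp26c1 and Stra6), and all 9 were found, each as a single row, among 34236 gene symbols. RNA sequencing was done on 2 libraries of mouse heart at embryonic day 12.5, replicate 1 and replicate 2, from a mixed C57BL/6 x 129S6 background with no treatment. The libraries form 1 group, so no conditions were compared. No label tells how many embryos or litters stand behind each sample, so the spread between the samples may be technical.

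Retinol reaches cells bound to a plasma carrier and enters some of them through the membrane receptor STRA6. Retinol dehydrogenases turn it reversibly into retinaldehyde, and the ALDH1A enzymes then oxidise retinaldehyde irreversibly to retinoic acid. The CRABP proteins carry retinoic acid in the cytoplasm, nuclear RAR and RXR receptors read it, and the CYP26 enzymes oxidise it for removal. In the mid-gestation heart the epicardium, the outer cell layer, is known as a site of retinoic acid synthesis through Aldh1a2, and retinoic acid is needed for growth of the ventricular wall.

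Values are in FPKM, fragments per kilobase of transcript scaled to library depth, as the authors deposited them, so levels of different genes can be set side by side per length. Means are given ± SD (n = 2). Absolute depth is unknown, and 1 fragment was worth 1.33 times as much FPKM in replicate 2, so replicate 1 was the deeper library. Replicate 1 had a summed FPKM of 388230 and replicate 2 one of 382561. The smallest two-sided p that an exact sign-flip test over 2 libraries can give is 0.5, so differences are set against the spread between the libraries and carry no p-value. Of the marker genes, all 8 for cardiomyocytes, all 9 for endothelium, all 5 for red cells, all 4 for macrophages and all 11 for epicardium reached 1 FPKM in both libraries. None of 9 for hepatocytes and none of 10 for lung and foregut did. Of 10 markers of neural crest and neurons, 5 did. Among all protein-coding symbols the share was 52.4%.

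Of the 9 genes, 5 reached 1 FPKM in both libraries (Aldh1a1, Aldh1a2, Crabp1, Crabp2 and Cyp26b1), against 52.4% of 22240 protein-coding symbols and 36.2% of all symbols, so the share detected was near that of protein-coding genes. The median of the 9 was 1.88 FPKM, against 1.68 FPKM over protein-coding symbols.

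Upstream sequence is shown for the most abundant gene, Aldh1a2, for Cyp26b1, the CYP26 gene with the highest level, and for Cyp26a1, a low gene that is well known as a direct target of retinoic acid receptors. The sequences are those of RefSeq on GRCm38.p6, not the build of the files. They run 5′ to 3′ on the gene's strand from 250 bases before the annotated start, leaving out bases next to the start that also occur in GENCODE M21 transcripts of the gene. RefSeq windows matched 7 of the 9 genes, the others being Aldh1a3 and Crabp2. Capitals in Cyp26a1 mark a direct repeat of receptor-binding cores spaced by 5 bases (DR5), and capitals in Cyp26b1 mark TATAAA.
Cyp26a1, chr19:37697558-37697797, plus strand: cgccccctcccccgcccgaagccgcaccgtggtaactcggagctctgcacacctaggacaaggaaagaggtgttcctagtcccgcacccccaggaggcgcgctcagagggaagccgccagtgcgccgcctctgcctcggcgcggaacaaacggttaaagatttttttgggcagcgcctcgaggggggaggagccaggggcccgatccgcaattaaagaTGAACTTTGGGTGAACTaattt
Cyp26b1, chr6:84593909-84594060, minus strand: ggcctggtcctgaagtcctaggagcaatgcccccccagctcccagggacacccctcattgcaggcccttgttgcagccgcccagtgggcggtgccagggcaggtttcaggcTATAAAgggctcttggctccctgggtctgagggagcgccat
Aldh1a2, chr9:71215539-71215784, plus strand: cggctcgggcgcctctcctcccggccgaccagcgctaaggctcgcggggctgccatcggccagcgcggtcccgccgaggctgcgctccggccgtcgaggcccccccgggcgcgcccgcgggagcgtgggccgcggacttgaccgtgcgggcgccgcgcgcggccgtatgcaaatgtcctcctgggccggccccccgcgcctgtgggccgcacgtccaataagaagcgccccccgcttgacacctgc

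Retinoic acid synthesis was represented mainly by Aldh1a2. This gene (ENSMUSG00000013584; chromosome 9, 71063596 to 71144050, mm9), which encodes the main retinaldehyde dehydrogenase of the early embryo, had 20.4 FPKM in replicate 1 and 19.2 FPKM in replicate 2. It was the highest of the 9 genes, ranked 3508 among all symbols, and lay above 84.5% of protein-coding symbols. Aldh1a1 (chromosome 19, 20676451 to 20717952), a related enzyme known from the adult liver and the dorsal retina, had 3.38 and 3.80 FPKM in replicates 1 and 2. Aldh1a3 (chromosome 7, 73535778 to 73572403), the enzyme of nasal and ventral eye tissue, had 0.107 and 0.112 FPKM. The order was thus the same in each library, with Aldh1a2 5.52 times Aldh1a1 and Aldh1a1 32.7 times Aldh1a3 by mean FPKM. On the scale of log2(FPKM + 1), which understates ratios of low genes, Aldh1a2 exceeded Aldh1a1 by 2.18 ± 0.15 and Aldh1a1 exceeded Aldh1a3 by 2.05 ± 0.09. Both exceed 0.32, the 95th percentile of the difference between the libraries over the 12637 genes whose mean was at least 1 FPKM. That limit covers spread between the libraries only, not errors that both share. Aldh1a2 held 85.4% of the summed Aldh1a FPKM in replicate 1 and 83.1% in replicate 2.

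The longest match of any of the 9 to a transcript of another gene was to Aldh1a7, a mouse paralogue of Aldh1a1, which matched Aldh1a1 at 89.1% identity over 2072 bases. Aldh1a7, named for this match and not for its level, was at 0.271 ± 0.062 FPKM. None of the 9 genes shared a stretch of 75 bases at 98% identity or more with a transcript of another gene.

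**Figure D1:**
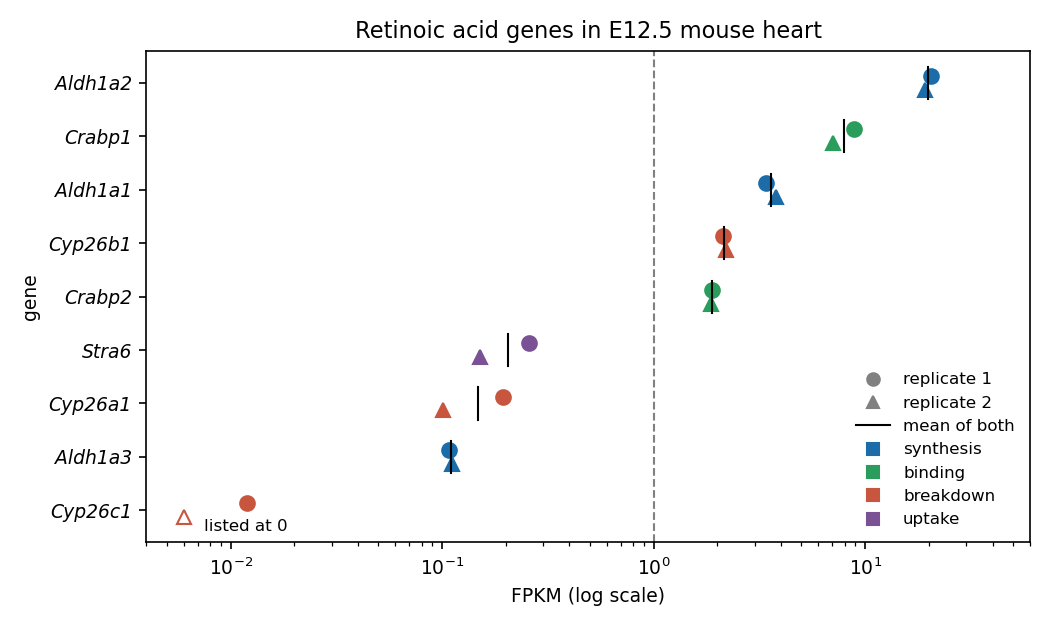
FPKM on a log scale of the 9 genes in replicate 1 (circles) and replicate 2 (triangles), with the mean as a bar, coloured by role. The dashed line is 1 FPKM: 5 genes lie above it in both libraries and 4 below, and the open triangle is Cyp26c1, listed at 0 in replicate 2.

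Among the carriers, Crabp1 was higher than Crabp2. Crabp1 (chromosome 9, 54612555 to 54620917), whose product holds retinoic acid in the cytoplasm, had 8.83 FPKM in replicate 1 and 7.05 FPKM in replicate 2. Crabp2 (chromosome 3, 87752588 to 87757298), whose product delivers retinoic acid to the nuclear receptors, had 1.89 and 1.87 FPKM. Their values did not overlap, and the log2 ratio of 1.63 ± 0.20 was beyond the spread between the libraries. Crabp1 held 82.4% of the summed Crabp FPKM in replicate 1 and 79.0% in replicate 2.

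Fabp5, a fatty acid carrier that can also bring retinoic acid to the receptor PPAR delta, was far above both at 126 ± 2.60 FPKM.

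Breakdown was represented by Cyp26b1. This gene (chromosome 6, 84521938 to 84543740) had 2.12 FPKM in replicate 1 and 2.20 FPKM in replicate 2. Cyp26a1 (chromosome 19, 37772298 to 37776018) had 0.194 and 0.101 FPKM. Cyp26c1 (chromosome 19, 37760071 to 37767888) had 0.0120 FPKM in replicate 1 and was listed at 0 in replicate 2, which does not show that its transcript was absent. Only Cyp26b1 of the 3 reached 1 FPKM. It was 14.6 times Cyp26a1 by mean FPKM (log2 ratio 1.46 ± 0.11, beyond the spread). Cyp26a1 and Cyp26c1 are too low to differ beyond it at a pseudocount of 1 FPKM (0.19 ± 0.07). With 0.1 FPKM in its place their log2 difference was 1.20, beyond the spread of 0.42 on that scale. That spread comes from genes with a mean of at least 1 FPKM and not from genes this low. Cyp26b1 held 91.1% of the summed Cyp26 FPKM in replicate 1 and 95.6% in replicate 2.

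**Figure D2:**
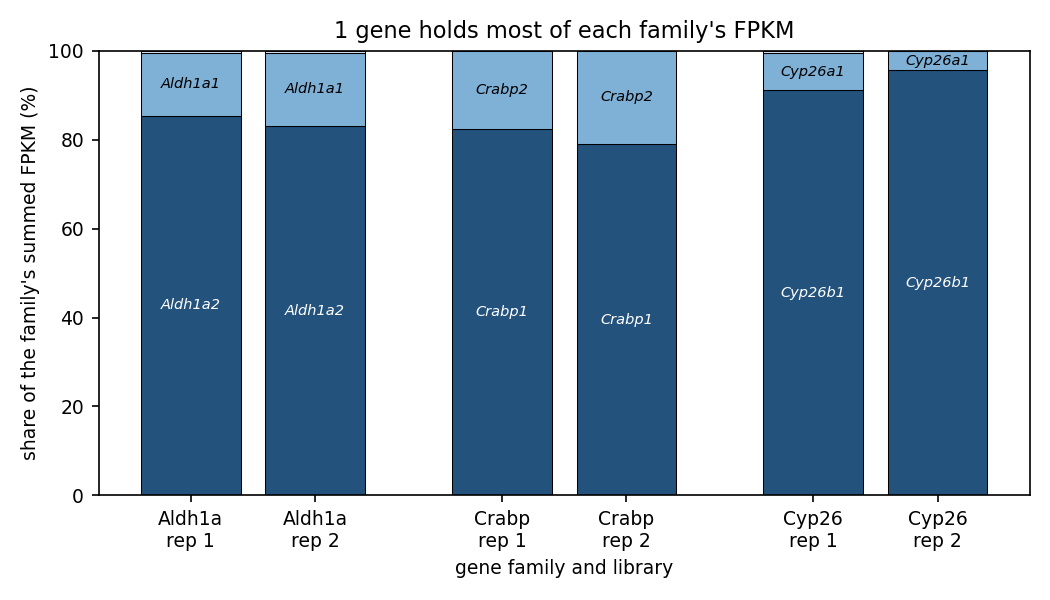
Share of each family's summed FPKM (%) held by each member, as stacked bars, for each library. Aldh1a2, Crabp1 and Cyp26b1 hold between 79.0% and 95.6% of their families, and the unlabelled slivers are Aldh1a3 and Cyp26c1.

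Cyp26c1 and Cyp26a1 are neighbours on the same strand of chromosome 19 with 4409 bases between them. The nearest genes of at least 1 FPKM on either side of the pair were Exoc6, a subunit of the exocyst, at 7.63 ± 0.634 FPKM and Myof, a membrane repair protein, at 1.89 ± 0.212 FPKM. Cyp26b1 lies 24739 bases from Exoc6b, the paralogue of Exoc6, which was at 7.78 ± 0.443 FPKM.

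Summed Aldh1a FPKM was 10.3 times summed Cyp26 FPKM in replicate 1 and 10.04 times in replicate 2. These are transcript levels of bulk heart tissue and not enzyme activities, and a gene used by few cells and a gene used weakly by many cannot be told apart in them.

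For uptake, Stra6 (chromosome 9, 57911595 to 58001803) had 0.258 FPKM in replicate 1 and 0.151 FPKM in replicate 2. Its row overlaps Ccdc33 on the opposite strand, at 0.0259 ± 0.0229 FPKM, over 55036 bases. It also overlaps Gm16131 on the same strand over 1175 bases, listed at 0 in both libraries. Without strand information, reads in the overlap with Ccdc33 cannot be told apart, and for Gm16131 strand would not separate them. The related retinol-binding protein receptor gene Stra6l, listed in the files as 1300002K09Rik, was at 0.0837 ± 0.0330 FPKM. Scarb1, a lipoprotein receptor that also takes up carotenoids, was at 26.0 ± 0.536 FPKM.

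In the order of the 9 means, 4 of 8 steps between neighbours were beyond the spread: Aldh1a2 over Crabp1, Crabp1 over Aldh1a1, Aldh1a1 over Cyp26b1, and Crabp2 over Stra6. The limit of 0.32 pools all genes with a mean of at least 1 FPKM. Among genes with means from 1 to 3 FPKM, the 95th percentile of the ratio between the libraries was 1.91. Aldh1a1 was 1.66 times Cyp26b1 by mean FPKM, so that step lay inside the spread at the level of Cyp26b1. At the level of Aldh1a1, from 3 to 10 FPKM, the 95th percentile was 1.30. Cyp26b1 and Crabp2 did not differ beyond 0.32 (0.13 ± 0.03). Stra6, Cyp26a1, Aldh1a3 and Cyp26c1 were all under 0.3 FPKM, where a pseudocount of 1 FPKM leaves little room for a difference beyond 0.32. With a pseudocount of 0.1 FPKM and its limit of 0.42, Stra6 over Cyp26a1 (0.30) and Cyp26a1 over Aldh1a3 (0.21) stayed within the spread, and Aldh1a3 over Cyp26c1 (0.99) was beyond it. That limit, too, comes from genes with a mean of at least 1 FPKM and not from genes this low. In replicate 2 Aldh1a3 was above Cyp26a1, the reverse of replicate 1.

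On the scale of FPKM + 1, none of the 5 genes whose mean was at least 1 FPKM differed 2-fold or more between replicates 2 and 1. That size was reached by 93 (0.736%) of the 12637 genes of that level. With a pseudocount of 0.1 FPKM, which damps low genes less, 175 genes reached it and again none of the 5 did. The largest difference among the 5 detected genes was that of Crabp1, whose log2(FPKM + 1) was 0.29 lower in replicate 2. Below 1 FPKM, Cyp26a1 was 1.92 times and Stra6 1.70 times as high in replicate 1 as in replicate 2. Among 2267 genes with means from 0.1 to 0.3 FPKM, the median ratio between the libraries in either direction was 1.37 and the 95th percentile 3.98, so both lie inside that spread.

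**Figure D3:**
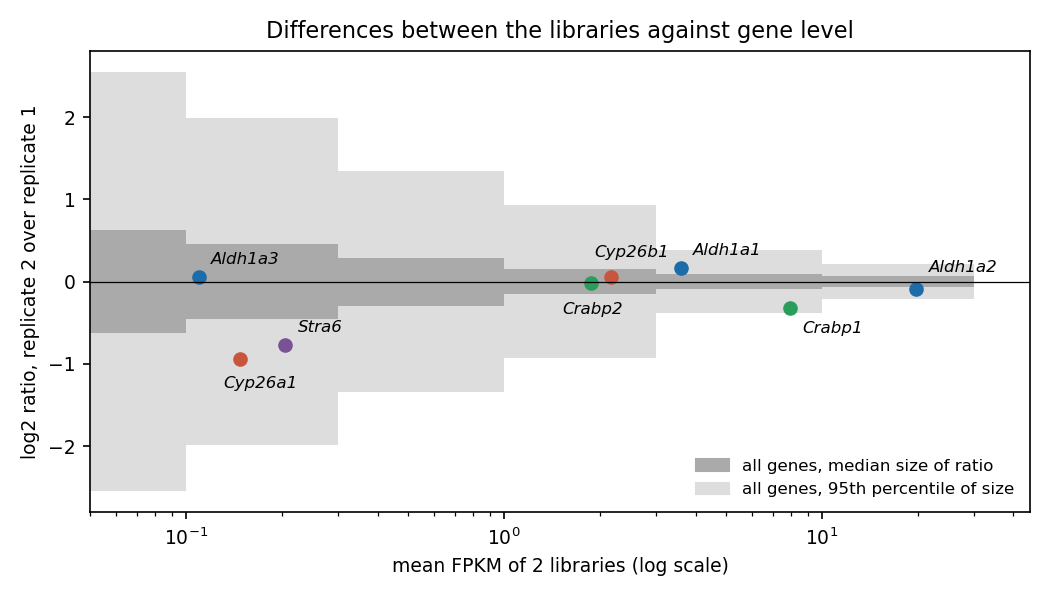
Log2 ratio of replicate 2 over replicate 1, with no pseudocount, against mean FPKM on a log scale for 8 of the 9 genes (Cyp26c1, listed at 0 in replicate 2, has no ratio). Dark and light bands are the median and the 95th percentile of the size of the ratio over all genes of that level above 0 in both libraries. All 8 points lie inside the light band.

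Genes of retinol and carotenoid handling differed widely in level. Of 25 listed, 14 reached 1 FPKM in both libraries (56.0%, against 52.4% of protein-coding symbols). The median of all 25 was 2.42 FPKM. Rdh10, the main retinol dehydrogenase of the embryo, was at 3.55 ± 0.003 FPKM, and Dhrs3, which reduces retinaldehyde back to retinol, was at 8.44 ± 0.071 FPKM. Lrat, which stores retinol as esters, was at 1.22 ± 0.256 FPKM. Adh5, the formaldehyde-oxidising member of the alcohol dehydrogenases, was at 59.4 ± 1.10 FPKM, while Adh4 had 0.118 FPKM in replicate 1 and was listed at 0 in replicate 2, and Adh7 was at 0.0191 ± 0.0079 FPKM. The carotenoid-cleaving enzyme gene Bco1, listed as Bcmo1, was at 0.0581 ± 0.0003 FPKM.

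The plasma carrier gene Rbp4 had 0.747 FPKM in replicate 1 and 1.13 FPKM in replicate 2, and that of its partner transthyretin, Ttr, had 0.220 and 0.510 FPKM. Both genes are strongly used by liver. Of the 9 hepatocyte markers, none of which reached 1 FPKM in both libraries, 5 were higher and 4 lower in replicate 2. Their sum was 2.12 FPKM in replicate 1 and 3.40 FPKM in replicate 2, and most of it came from Alb at 0.577 and 1.12 FPKM and Afp at 0.858 and 1.49 FPKM. The part of liver RNA in the Rbp4 and Ttr values was not tested.

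Receptors were detected for 5 of 6 genes (83.3%, against 52.4% of protein-coding symbols). Rxrb was at 21.1 ± 0.806, Rxra at 16.5 ± 0.0026, Rara at 15.4 ± 0.079, Rarb at 10.04 ± 0.067 and Rarg at 5.80 ± 0.054 FPKM, and Rxrg at 0.657 ± 0.084 FPKM. The receptors' median of 12.7 FPKM compares with 1.88 FPKM for the 9 genes of synthesis, carriage, breakdown and uptake. Of 9 cofactor genes, 8 were detected (88.9%, against the same 52.4%), led by the corepressor Ncor1 at 33.8 ± 3.55 FPKM. Prame, a repressor of RAR signalling, was listed at 0 in both libraries.

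Genes known elsewhere as targets of retinoic acid differed widely in level. Of 16 listed, 10 reached 1 FPKM in both libraries (62.5%, against 52.4% of protein-coding symbols). Tgm2, a transglutaminase, was at 71.2 ± 1.85 FPKM, the homeobox gene Meis2 at 36.9 ± 1.33, Meis1 at 25.5 ± 0.009 and the nuclear receptor Nr2f2 at 17.6 ± 0.359 FPKM. The Hox genes Hoxa4, Hoxb1 and Hoxb4 lay between 0.0189 ± 0.0161 and 0.576 ± 0.087 FPKM. Stra8, a germ cell gene of meiosis, was listed at 0 in both libraries. Rarb of this list also stands in the list of receptors, Dhrs3 in that of retinol handling and Nrip1 in that of cofactors.

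Both Cyp26a1 and Rarb carried a DR5 in their RefSeq window of 300 bases, and their levels differed: Cyp26a1 had 0.194 and 0.101 FPKM and Rarb had 9.99 and 10.1 FPKM in replicates 1 and 2. The motif was searched on both strands as any pair of cores, each being AGGTCA or AGTTCA or GGTTCA or GGGTCA in the same direction with 5 bases between them. The repeats are printed in the direction of their cores, which are in capitals, on GRCm38.p6.
Cyp26a1, chr19:37697776-37697792, minus strand: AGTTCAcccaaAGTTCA
Rarb, chr14:16575513-16575529, minus strand: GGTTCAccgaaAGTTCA
The repeat lay from 32 to 16 bases before the annotated start of Cyp26a1 and from 53 to 37 bases before that of Rarb. All 250 bases before this RefSeq start of Rarb, the repeat included, also occur in a GENCODE M21 transcript of Rarb. Windows of 31 among 27025 genes (0.115%) held a DR5. Of the receptors and targets that are not among the 9, 15 of 21 had a window, and none but Rarb held a DR5. Nor did the other 6 members with a window. A match describes letters in this window only.

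TATAAA occurred in the windows of Cyp26b1, beginning 139 bases before the annotated start, and of Cyp26a1, from base 30 to base 35 after the start and so outside the stretch printed above. The 98 bases just before this RefSeq start of Cyp26b1 also occur in a GENCODE M21 transcript of the gene. TATAAA was found in the windows of 15.7% of all genes. In the Aldh1a2 stretch printed above 78.5% of bases were G or C, with 40 CG dinucleotides in 246 bases. In that of Cyp26a1 these were 62.1% and 20 in 240 bases, and in that of Cyp26b1 65.1% and 3 in 152 bases.

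Epicardial markers were set beside Aldh1a2. Upk3b, a uroplakin gene of mesothelial cells, was at 63.1 ± 0.434 and the transcription factor gene Tcf21 at 32.1 ± 0.610 FPKM, both above Aldh1a2 at 19.8 ± 0.871 FPKM. Tbx18 at 19.7 ± 0.962, Wt1 at 13.4 ± 0.270 and the other 7 markers, down to Msln at 3.34 ± 0.308 FPKM, lay below it. Tbx18 differed from Aldh1a2 by less than the SD of either. Bulk RNA does not show which cells held the transcripts.

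**Figure D4:**
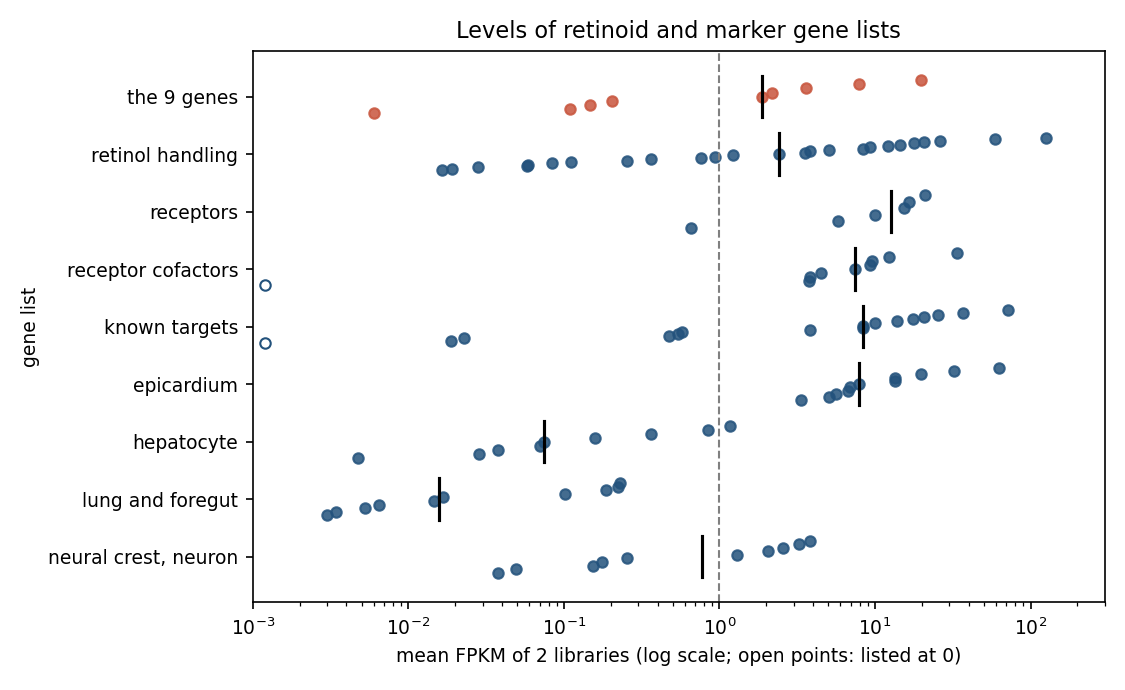
Mean FPKM of 2 libraries on a log scale for each gene of the 9, of 4 retinoid lists and of 4 marker lists, with the list median as a bar and the dashed line at 1 FPKM. Receptors (median 12.7 FPKM) and epicardial markers (7.88 FPKM) lie above the line apart from Rxrg, while all lung and foregut markers lie below it.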

How the data were processed

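Total RNA of 2 mouse heart samples at embryonic day 12.5 was sequenced after Trizol extraction and TruSeq RNA v2 library preparation, per the labels. The authors deposited 1 FPKM value per gene and library. GSNAP, Cufflinks and Cuffnorm, with the builds mm9 and hg19, are named in the submitters' processing notes. For their versions, the gene annotation, strandedness and multiply mapped reads nothing is given in the sources used here. Gene coordinates in the files reach 197054592 on chromosome 1 and are given here on mm9, the mouse build those notes name.

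Rows of a symbol were summed (37620 rows, 34236 symbols). Log2 values used a pseudocount of 1 FPKM. Detected means at least 1 FPKM in both libraries. Differences between libraries were counted at 2-fold or more in FPKM + 1 where the mean was at least 1 FPKM. Relative depth came from the commonest ratio among 2881 genes under 0.1 FPKM in both libraries (491 within 0.05 log2 units of it). No count model was used, since FPKM values are not counts. Counting error cannot be computed from them.

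The 9 genes and all lists were chosen with earlier results of these data known. Of 127 distinct list symbols, 124 were found as written and 3 by gene ID. Named are the 9 genes, genes of the lists, and genes that overlap or flank a member. Some genes counted in the lists are not reported here by name. Over 2 libraries every correlation is 1 or -1, so no gene was named for a similar pattern. Aldh1a7 and the motif searches were added after the values were seen. Sequence copies were sought with BLAST 2.17.0 in GENCODE M21 transcripts. The rules for relative depth and for 2-fold differences were tested on simulated data with counting error only. The limit from the spread, the detection rule and the motif searches were not. Alternatives were other pseudocounts, detection limits, filters and scalings, taking a symbol's highest row, and single libraries. Python 3.11.15, NumPy 2.4.6, pandas 2.3.3 and Matplotlib 3.10.9 were used.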

Additional observations from a re-analysis of the deposited data

How the results depend on the processing

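The number of detected genes among the 9 stayed between 4 (limit of 2 FPKM) and 5 under every limit, scaling and single library tried, and the count of order steps beyond the spread was 4 to 5, the 5 with a pseudocount of 0.1 FPKM, which put Aldh1a3 over Cyp26c1 beyond it (0.99). The count of members that differed 2-fold between the libraries was 0 under each setting. This includes a pseudocount of 0.1 FPKM with no filter, chosen after the data were seen, where 816 of all symbols differed. In every other setting the 4 genes under 0.3 FPKM could not have been counted. The filter left them out, or a pseudocount of 1 FPKM kept them under 2-fold. For these 4 the counts of 0 under those settings therefore show nothing. The median level of the 9 genes was 4.88 when FPKM was rescaled to TPM, against 1.88 as deposited, a change of unit, and 1.87 to 1.89 in single libraries. Counts of detected genes in the 4 retinoid lists stayed within 1.5 times. Of the marker lists, 2 hepatocyte markers were detected with a limit of 0.5 FPKM and in replicate 2 alone, and 3 of 10 neural crest and neuron markers with a limit of 2 FPKM. Cyp26a1 over Aldh1a3 was -0.01 in replicate 2 alone. No paired analysis was possible because the libraries form 1 group. Absolute depth is unknown, so counting error for the 4 genes under 0.3 FPKM cannot be given.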
